A study of Arabidopsis thaliana with 9 samples.

Results

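Roots held for 24 h in air at 50 kPa, where the partial pressure of oxygen fell with the total pressure, were compared with roots held at the ambient pressure of the site, 97 kPa. The comparison rests on the 3 arrays titled as 50 kPa roots without an oxygen supplement and the 3 titled as control pressure roots, 6 of the 9 arrays of the series. The other 3 arrays came from roots at 50 kPa to which oxygen had been added to a partial pressure of 21 kPa, named 50 kPa/NormOx, and their values are given only to show where the 50 kPa roots stood beside them. All plants were light-grown seedlings of the Arabidopsis thaliana ecotype Wassilewskija, a natural accession without introduced alleles, 5 d old when moved to the chambers, and every atmosphere held carbon dioxide at 0.05 kPa. Each array carried the roots pooled from about 12 plants, dissected away from the shoots after fixation, and the 3 arrays of a group came from 3 chambers. Since pressure and oxygen were lowered together, their shares in a difference between 50 kPa and 97 kPa cannot be told apart within the 6 arrays. For the description of single genes, a signal is the linear hybridisation intensity of 1 probe set (a group of short probes against 1 transcript) after the authors had scaled all arrays to a common mean.

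Root cells depend on oxygen that diffuses to them from the surrounding gas and from the shoot. Plants sense low oxygen through the stabilisation of a group of ethylene response factors, which switch on a core set of hypoxia genes shared by most cell types, among them enzymes of fermentation, small proteins of unknown function and stress proteins. Root tissues also carry barriers to water and gas, such as the suberin and wall polymers of endodermis and cortex, whose synthesis uses lipid transfer proteins, GDSL-type lipases and peroxidases. Light-grown roots hold plastids that can green, so that a root sample may carry transcripts of chloroplast proteins without holding any shoot tissue.

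Median signals over the arrays were 207 to 217 at 97 kPa and 196 to 201 at 50 kPa, so that the groups did not overlap. Correlations of log2 signal across the 15818 tested probe sets, which are not independent replicates, were 0.949 to 0.966 within the 2 groups and 0.944 to 0.96 between them. Ratios of 3′ to 5′ signal from the control probe sets, a measure of RNA integrity, numbered 6. Of these, 2 were lower on every 50 kPa array than on any 97 kPa array. They were 1 ubiquitin ratio (6.42 to 7.38 against 7.41 to 7.81) and 1 GAPDH ratio (4.4 to 5.11 against 5.39 to 6.39). The other 4 overlapped and included much larger ratios. For 1 actin ratio these were 77.2 to 115.9 at 50 kPa against 82.5 to 111.6 at 97 kPa. Another GAPDH ratio was 32.3 to 69.3 against 58 to 78.5. In all 6 ratios, 3′ signal was several-fold above 5′ signal in both groups. The part of RNA integrity in the differences below was not tested. Root identity could be checked on few genes, because 10 of the 43 marker entries had a probe set that the annotation names. The root hair expansins EXPA7 (266, 293 and 336 at 97 kPa, 384, 206 and 330.3 at 50 kPa) and EXPA18 (453, 341 and 359, then 464, 304 and 411) had signals well above the filter's floor of 66.7 in all arrays and overlapped between the groups. Replicate 2 of 50 kPa/NormOx correlated more highly with the 50 kPa arrays (0.954 to 0.96) than with its own group (0.944 to 0.946), and since all 9 arrays share 1 estimate of the spread, results are also given without it.

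At 50 kPa, 13 probe sets rose (0.0822%) and 2 fell (0.0126%) among the 15818 tested (0.0948% called; limma on log2 signal over the 9 arrays, Benjamini-Hochberg adjusted p under 0.05). All 15 separated the 50 kPa arrays from the 97 kPa arrays without overlap, as did 16% of all tested probe sets (6.2% higher and 9.77% lower at 50 kPa). The annotation names 1 gene for 8 of the 15, and 6 of these 8 belong to the core hypoxia response. The median log2 change over all tested probe sets was -0.04, and 43.2% of them lay above 0. Leaving out single arrays moved the count to 8 when 97 kPa replicate 2 was left out, and likewise for replicates 1 and 3 of 50 kPa, to 25 without 50 kPa/NormOx replicate 3 and to 53 without 50 kPa/NormOx replicate 2. The count was 62 (0.392%; 51 higher, 11 lower) when the 6 arrays were fitted alone, and all 15 calls were among the 62. Under the rule of the study's methods, an unadjusted p under 0.01 with a change of at least 2-fold, 101 probe sets passed (0.639%), 71 of them higher and 30 lower, and 48 of the 101 name 1 gene. The split by direction was less stable than the count, at 57 higher and 50 lower without 50 kPa replicate 2, 47 and 29 without 50 kPa replicate 1, 86 and 18 after each array was centred on its median, and 82 and 17 after quantile normalization.

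**Figure D1:**
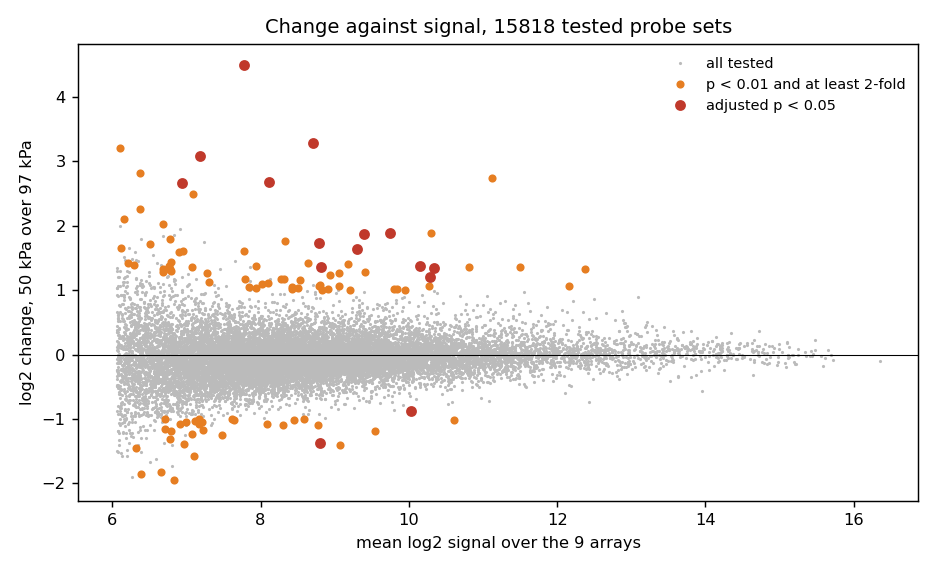
Log2 change at 50 kPa over 97 kPa (vertical axis) against mean log2 signal over the 9 arrays (horizontal axis) for the 15818 tested probe sets, with the 15 called in red and the other probe sets past the methods' rule in orange. The called probe sets lie mostly above 0, and most orange points below 0 sit at the dim end of the axis.

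The largest rise among named genes was that of the wound-responsive family gene AT4G33560. Its signals were 170.3, 246 and 171 at 97 kPa and 1745, 1726 and 2186 at 50 kPa, a 9.73-fold rise (log2 change 3.28 ± 0.31 SE, limma adjusted p = 0.000161). Each 50 kPa array lay far above each 97 kPa array, and with oxygen restored the signals were 378, 185 and 122, with replicate 1 above the controls, replicate 2 among them and replicate 3 below them. The other wound-responsive family gene of the core response, AT4G10270, gave 596, 451 and 466 at 97 kPa, 1901, 1229.8 and 2712 at 50 kPa and 1047, 512 and 574 at 50 kPa/NormOx. It rose 3.7-fold against 97 kPa (limma adjusted p = 0.0101) with every 50 kPa array above the controls. The call was lost when limma was fitted without 97 kPa replicate 2 (0.0682), 97 kPa replicate 3 (0.0617), 50 kPa replicate 1 (0.0818) or 50 kPa replicate 3 (0.0724) (adjusted p in brackets).

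AT4G27450, which encodes an aluminium-induced protein, had signals of 379, 510.5 and 440.1 at 97 kPa and 1525, 1276 and 2175 at 50 kPa. It rose 3.68-fold (limma adjusted p = 0.00206) with no overlap, and gave 562, 295 and 477 at 50 kPa/NormOx. AT3G03270 encodes a universal stress protein that in Arabidopsis modulates reactive oxygen production under low oxygen. It had the smallest standard error of the 8 genes, and its signals were 998, 986 and 969.6 at 97 kPa, 2595, 2220.3 and 2039.7 at 50 kPa and 879.9, 943 and 775 at 50 kPa/NormOx, and the rise was 2.31-fold (log2 change 1.21 ± 0.14 SE, limma adjusted p = 0.000696). AT4G33560 and AT3G03270 were called under each of the 20 alternative fits, and AT4G27450 under 19 of them.

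A pair of small proteins of unknown function rose with a wider spread. AT5G66985 gave 972, 843 and 964 at 97 kPa and 2218, 1636 and 3562 at 50 kPa (2.54-fold, limma adjusted p = 0.0317). AT1G33055 gave 105, 33 and 86.4 at 97 kPa and 477, 318 and 1219 at 50 kPa (8.51-fold, limma adjusted p = 0.0186). In both genes replicate 3 of 50 kPa was the highest array and replicate 2 the lowest, and all 50 kPa arrays stayed above the controls. The size of the AT1G33055 change is uncertain, because a control array lay under the filter's floor of 66.7. The call of AT5G66985 was lost when limma was fitted without 97 kPa replicate 1 (0.112), 97 kPa replicate 2 (0.167), 97 kPa replicate 3 (0.118), 50 kPa replicate 1 (0.162) or 50 kPa replicate 3 (0.0874) (adjusted p in brackets). The AT1G33055 call was lost on leaving out 97 kPa replicate 2 (0.0685), 50 kPa replicate 1 (0.104) or 50 kPa replicate 3 (0.0941) (adjusted p in brackets).

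**Figure D2:**
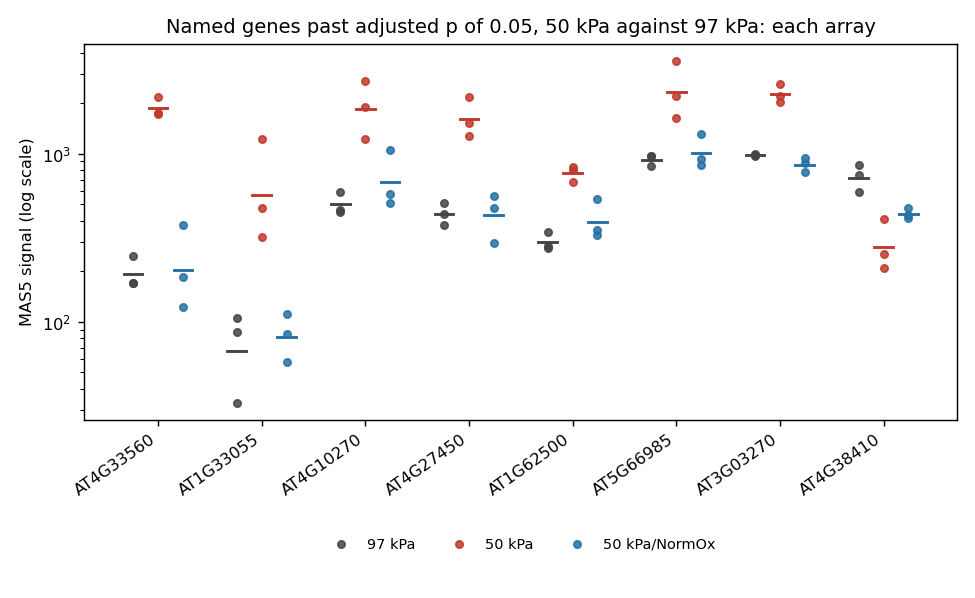
MAS5 signal (log scale) of the 8 named genes called between 50 kPa and 97 kPa, with each array as a point and each group's geometric mean as a bar. The 50 kPa arrays sit above all 97 kPa arrays for 7 genes and below them for AT4G38410, while the 50 kPa/NormOx arrays lie near the controls for AT4G33560, AT4G27450 and AT3G03270.

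Of the 45 entries of the core hypoxia list, 24 were tested by name, among which 6 rose, none fell and 18 did not pass. The median log2 change of the list was 0.69, against -0.04 over all tested probe sets, and 21 members lay above 0. Members past the methods' rule numbered 10 (0.449% of all probe sets passed it upward). Beside the 6 risers these were AT5G44730, a haloacid dehalogenase-like hydrolase (log2 change 1.07 ± 0.22 SE), AT2G17850, a rhodanese-domain protein (1.36 ± 0.37), AT5G10040, of unknown function (1.79 ± 0.50), and AT3G29970, which carries a B12D domain (1.29 ± 0.38). The members that did not pass included PDC2, a pyruvate decarboxylase of ethanol fermentation (-0.03 ± 0.23), and AT3G10040, a trihelix factor that restrains the response in Arabidopsis (0.33 ± 0.77). PDC1 and ADH1, the enzymes most used as markers of fermentation, were not analysed by name here.

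The annotation lists no gene for 7 of the 15 called probe sets, which are given by number. Probe set 260869_at had the largest change of all, with signals of 104, 69 and 28.6 at 97 kPa and 1491, 1324 and 1204 at 50 kPa (4.50 ± 0.44 SE on the log2 scale, limma adjusted p = 0.000161). Its 50 kPa arrays were close together and its control arrays were dim, 1 of them under the floor, so that the fold is less certain than the direction. Probe set 252746_at went from 441, 492 and 398 to 1255, 1388 and 1526, a 3.13-fold rise (limma adjusted p = 0.000161). The other 4 unlisted risers had log2 changes of 1.38 to 2.68. The unlisted probe set that fell, 253402_at, went from 1592, 1506 and 1455 to 739, 968 and 792, with each 50 kPa array below each control (fell by 0.87 on the log2 scale, limma adjusted p = 0.0278), and gave 1004, 916 and 830.1 at 50 kPa/NormOx. Its call was lost when limma was fitted without 97 kPa replicate 1 (0.155), 2 (0.128) or 3 (0.095), or without 50 kPa replicate 1 (0.176) or 3 (0.0919) (adjusted p in brackets). Of the unlisted risers, 258589_at lost its call without any 1 of the 6 arrays at 97 kPa or 50 kPa (adjusted p of 0.0508 to 0.162 by limma), and 253416_at without any of them but 97 kPa replicate 2 (0.0626 to 0.176).

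Outside the hypoxia genes, AT1G62500 rose at 50 kPa. It encodes a protein of the lipid transfer family and is used as a marker of the root cortex. Its signals were 274, 283 and 343 at 97 kPa, 800.3, 833 and 678 at 50 kPa and 326, 535 and 352 at 50 kPa/NormOx, and the rise over 97 kPa was 2.57-fold (log2 change 1.36 ± 0.20 SE, limma adjusted p = 0.0101). The 50 kPa arrays were the 3 highest of all 9, and 50 kPa/NormOx replicate 2 lay between them and the rest. The dehydrin family gene AT4G38410, whose protein class protects cells from water loss, was the named gene that fell in the fit over 9 arrays. Signals of 589.5, 744 and 858 at 97 kPa stood against 406, 252 and 210.3 at 50 kPa and 432, 477 and 417 at 50 kPa/NormOx, a drop by 1.38 on the log2 scale against 97 kPa (limma adjusted p = 0.0261). All 50 kPa arrays lay below all controls and below all 50 kPa/NormOx arrays. The AT1G62500 call was lost when limma was fitted without 97 kPa replicate 1 (0.0617), 97 kPa replicate 2 (0.0682), 50 kPa replicate 1 (0.0847) or 50 kPa replicate 2 (0.0548) (adjusted p in brackets). The AT4G38410 call was lost without 97 kPa replicate 2 (0.128), 97 kPa replicate 3 (0.147), 50 kPa replicate 2 (0.0894) or 50 kPa replicate 3 (0.0919).

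Several genes lay just outside the threshold. AT5G48490, another lipid transfer family gene, had signals of 127, 104 and 175 at 97 kPa and 455, 444 and 324 at 50 kPa (log2 change 1.61 ± 0.29 SE, limma adjusted p = 0.055), with an adjusted p of 0.00936 when limma was fitted to the 6 arrays alone. SBT1.3, a subtilisin-like protease of the cell wall, had 765, 696 and 752 and 1371, 1695 and 1389 (1.00 ± 0.18 SE, limma adjusted p = 0.0552, and 0.00531 over the 6 arrays). For both genes all 50 kPa arrays were the highest of the 9. On the lower side, AT1G67870, a glycine-rich protein, had 3002, 2298 and 2731 at 97 kPa and 929.5, 1598 and 1526 at 50 kPa (-1.02 ± 0.19 SE, limma adjusted p = 0.0552), and AT1G23130, of a family of small lipid-binding proteins, had 1371, 1428 and 1085 and 359, 588 and 547 (-1.40 ± 0.26 SE, limma adjusted p = 0.0636). With oxygen restored, AT1G67870 was at 1143, 1172 and 989.8. AT1G23130 was then at 154, 294 and 333, below all of its 50 kPa arrays, though the direct difference between the low-pressure groups did not pass (0.98 for 50 kPa over 50 kPa/NormOx on the log2 scale, limma adjusted p = 0.321).

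The 10 largest named rises past the methods' rule with no overlap were the hypoxia genes AT4G33560, AT1G33055, AT4G10270, AT4G27450 and AT5G10040 and 5 genes from other families. The largest of the latter by fitted change was AT5G55450, of the lipid transfer family, but its signals of 4.11, 59.1 and 28.7 at 97 kPa and 408, 221 and 60.6 at 50 kPa fell below the floor in all controls and in 50 kPa replicate 3, so that its size of change (3.21 ± 0.91 SE) has little meaning. AT3G05600, an alpha/beta-hydrolase of the epoxide hydrolase kind, was brighter, at 106, 222 and 233 against 502, 708 and 599.9 (1.76 ± 0.42 SE, limma adjusted p = 0.175). AT1G12330, of unknown function, and AT5G51490, of the pectin methylesterase family, had log2 changes of 1.61 ± 0.43 and 1.65 ± 0.56 (SE). Control signals of both were at or under 97.8. For AT5G51490 all controls (30.3, 19.1 and 39.7) and 50 kPa replicate 1 (44.1) lay under the floor, so that its size of change also has little meaning. AT5G48490 is given above. None of these 5 passed over all probe sets in the fit of 9 arrays.

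The 10 largest named falls by the same rule were mostly dim, and the 30 probe sets past the rule downward had a median signal of 144 against 319.9 for the 71 upward and 356 for all tested probe sets. AT5G62420, an aldo-keto reductase family gene, went from 159, 165 and 159 to 20, 60.1 and 79.1 (-1.82 ± 0.55 SE, limma adjusted p = 0.31), with 50 kPa replicates 1 and 2 under the floor. AT2G41020, AT4G20310, AT3G18170 (glycosyltransferase family 61), AT5G24980 and AT1G47655 (a Dof-type zinc finger factor) had control signals of 125 to 277 and log2 changes of -1.16 to -1.58. The brighter members were AT4G38410 and AT1G23130, given above, AT4G14060, which belongs to the same lipid-binding family as AT1G23130 (1195, 1157 and 832 at 97 kPa, 351, 382 and 725 at 50 kPa, -1.19 ± 0.31 SE, limma adjusted p = 0.236), and AT2G27740 (483, 538 and 532, then 218, 285 and 227, -1.10 ± 0.21 SE, limma adjusted p = 0.0646). AT2G27740 was at 306, 189 and 266 at 50 kPa/NormOx, close to its 50 kPa signals. With the dimmest 50% of probe sets left out, 46 passed the rule upward and 10 downward.

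Values for plastid proteins differed between gene groups. The 10 tested nuclear genes for ribosomal proteins of the plastid, a list drawn up after values were seen, all lay above 0, with log2 changes of 0.35 to 0.91 and a median of 0.63 against -0.04 over all probe sets. An unadjusted p under 0.05 was reached by 8 of them (4.25% of all probe sets, upward), none passed over all probe sets, and 7 had 50 kPa arrays that lay above every control (6.2% of all probe sets). AT4G01310, ribosomal protein L5 of the plastid, had signals of 1139.6, 1163 and 1292 at 97 kPa and 2256, 2843 and 1783 at 50 kPa (0.91 ± 0.21 SE, limma adjusted p = 0.157, and 0.0282 over the 6 arrays). AT5G65220, of the L29 family, had 1966, 2352 and 1566 and 3598, 3426 and 3369 (0.84 ± 0.23 SE, limma adjusted p = 0.267, and 0.0247 over the 6 arrays). AT1G64510, of the S6 family, overlapped, with 97 kPa replicate 3 (1110.4) just above 50 kPa replicate 3 (1106). Other plastid genes lay below 0, among them the glutathione reductase GR (-0.40 ± 0.17 SE) and the thylakoid ascorbate peroxidase TAPX (-0.31 ± 0.23 SE), neither of which passed. At 50 kPa/NormOx the median change of the ribosomal list against the same controls was 0.30, and AT4G01310 gave 1442, 2468 and 1313, where replicate 2 lay among the 50 kPa arrays and the others near the controls.

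Tetrapyrroles are the ring compounds that become chlorophyll and haem. All 8 tested genes of a list drawn up after values were seen lay above 0, with a median log2 change of 0.28 and none passing over all probe sets. HEME2, a uroporphyrinogen decarboxylase, had signals of 271, 403 and 293 at 97 kPa and 672, 629.8 and 573 at 50 kPa (0.97 ± 0.25 SE, limma adjusted p = 0.237, and 0.0425 over the 6 arrays). PORB, which reduces protochlorophyllide in the light, had 344, 411 and 436 and 784, 912 and 629 (0.96 ± 0.26 SE, limma adjusted p = 0.267, and 0.0415 over the 6 arrays). These genes and CHLM, a methyltransferase of chlorophyll synthesis (0.45 ± 0.21 SE), had 50 kPa arrays above every control (6.2% of all probe sets). The other 5 members overlapped, with log2 changes of 0.04 to 0.28. In the list of nuclear photosynthesis genes, which shares PORB, CHLM and CHLI2 with the former, 12 of 13 tested members lay above 0 (median 0.33), none passed over all probe sets, and the changes of the light-harvesting proteins LHCB4.1, LHCB4.2 and LHCB4.3 were 0.46 ± 0.23, 0.33 ± 0.26 and -0.04 ± 0.29 (SE).

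Markers of shoot tissue are given beside these lists, with which they share LHCB4.1 and RCA as members of the photosynthesis list. Of the 14 entries for leaf mesophyll and the stomatal lineage, 5 had a named probe set and 3 were tested. LHCB4.1 had signals of 3249.8, 4465 and 4818 at 97 kPa and 5100.5, 7302 and 4861 at 50 kPa (limma adjusted p = 0.568), and the Rubisco activase RCA had 2194, 2508 and 2831 and 3336, 5042 and 2628 (0.50 ± 0.34 SE, limma adjusted p = 0.681). STOMAGEN, a peptide of leaf mesophyll that promotes stomata, had 246, 363 and 319 and 903, 837 and 493 (1.24 ± 0.34 SE, limma adjusted p = 0.267, and 0.0400 over the 6 arrays). The summed signal of the 3 genes was 5690 to 7968 at 97 kPa, 7982 to 13180 at 50 kPa and 4570 to 11732 at 50 kPa/NormOx, and the stomatal factors FMA and SPCH, at 4.48 to 129.8 over the 9 arrays, were too dim to be tested. Averaged over the 3 markers, 50 kPa replicate 2 was highest, and replicates 1 and 3 stood at 0.76 and 0.33 on the log2 scale relative to the 97 kPa mean, in the same order as the plastid ribosomal proteins (0.69, 0.93 and 0.37) and the tetrapyrrole genes (0.38, 0.61 and 0.28). Replicate 2 of 50 kPa/NormOx was also high in all 3 (1.04, 0.76 and 0.52), and its group mates lay between -0.26 and 0.05. The part of shoot tissue in the plastid values was not tested, and in such bulk samples more cells of a type and more RNA per cell cannot be told apart.

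**Figure D3:**
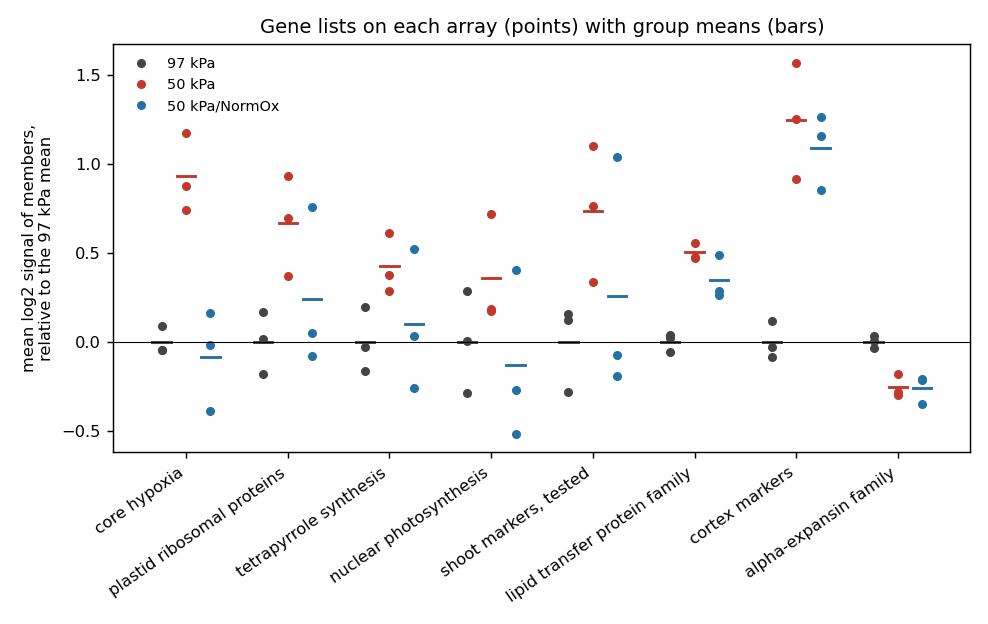
Mean log2 signal of the tested members of each list on every array, relative to the 97 kPa mean (points), with group means as bars. The plastid, tetrapyrrole and shoot marker lists share a high 50 kPa replicate 2 and a high 50 kPa/NormOx replicate 2. Core hypoxia genes are high at 50 kPa. Their 50 kPa/NormOx replicates 1 and 3 lie near the controls, and replicate 2 lies below them (-0.39). Cortex markers and the mean over lipid transfer genes lie above the controls on every array of both low-pressure groups. That mean includes AT5G55450, whose controls lie under the filter's floor.

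Lipid transfer proteins carry wax, cutin and suberin monomers to the wall. In the family list, drawn up after values were seen, 22 of 81 entries were tested, with a median log2 change of 0.13 and 14 members above 0. Of the tested members, 1 rose (AT1G62500) and 6 passed the methods' rule upward (0.449% of all probe sets). The 6, and the 7 below, include AT5G55450, whose controls all lay under the floor. It passed the filter only through its low-pressure arrays, so it adds no support to these counts. An unadjusted p under 0.05 was reached by 7 members, all higher (4.25% of all probe sets), and the remaining 15 had log2 changes between -0.29 and 0.76. AT1G62510, the neighbour of AT1G62500 by locus number, had signals of 141, 94.9 and 104 at 97 kPa, 517, 201 and 231 at 50 kPa and 428, 449 and 490.3 at 50 kPa/NormOx (1.37 ± 0.30 SE against 97 kPa, limma adjusted p = 0.135). The lowest of the 50 kPa signals was above the highest control, and the 50 kPa/NormOx arrays all lay above 50 kPa replicates 2 and 3. AT1G12100 (1.32 ± 0.39 SE) was dimmer, and AT3G53980 (0.54 ± 0.14 SE) changed less.

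The tested suberin genes were 4 of 18 entries, too few to describe as a list. AT2G48130, a lipid transfer gene of the suberin kind, had signals of 380.3, 247 and 293 at 97 kPa, 941, 564 and 474 at 50 kPa and 734, 642 and 1081 at 50 kPa/NormOx. The GDSL-type lipase genes AT2G23540 and AT5G37690 had 875, 489 and 659 and 2093, 1130.3 and 1383 at 50 kPa against 363, 346 and 163 and 845, 726 and 578 at 97 kPa. In all 3 genes the 50 kPa arrays lay above every control (6.2% of all probe sets). Their log2 changes were 1.06 ± 0.26, 1.26 ± 0.28 and 1.07 ± 0.22 (SE), and none passed over all probe sets (limma adjusted p = 0.186, 0.137 and 0.0869). The fourth gene, FACT, an acyltransferase of suberin and wax, had 0.23 ± 0.27.

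The 3 cortex markers had 50 kPa arrays above every control (6.2% of all probe sets), and AT1G62500 alone of them passed. Besides AT1G62500 and AT1G62510, AT1G09750, an aspartyl protease, had 313, 399 and 457 at 97 kPa, 807, 1037 and 545 at 50 kPa and 540.0, 739.6 and 818 at 50 kPa/NormOx (1.00 ± 0.23 SE against 97 kPa, limma adjusted p = 0.157). Their summed signal was 728 to 904 at 97 kPa, 1454 to 2124 at 50 kPa and 1295 to 1724 at 50 kPa/NormOx, with no overlap between the controls and either low-pressure group. The root hair markers EXPA7 and EXPA18 had log2 changes of 0.00 ± 0.29 and 0.02 ± 0.25 (SE). The part of the share of cortex cells in the lipid transfer values was not tested.

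**Figure D4:**
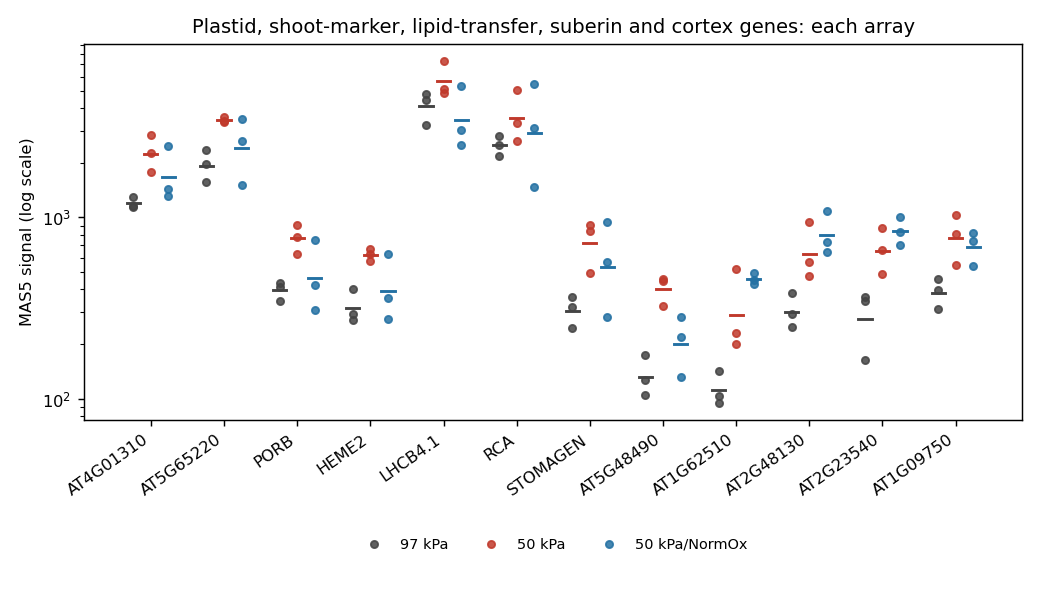
MAS5 signal (log scale) of 12 genes on each array (points) with geometric means (bars), from plastid and tetrapyrrole genes at the left, through the shoot markers LHCB4.1, RCA and STOMAGEN, to lipid transfer, suberin and cortex genes at the right. For PORB and HEME2 only replicate 2 of 50 kPa/NormOx reaches the 50 kPa arrays, and for AT1G62510, AT2G48130 and AT2G23540 all 50 kPa/NormOx arrays lie above the controls.

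Wall and secreted proteins were found on both sides. Among the 40 tested genes of the class III peroxidase family, which cross-link wall polymers, the median log2 change was 0.07. AT2G35380 (82.6, 220.3 and 102 at 97 kPa, 308, 273 and 249.7 at 50 kPa, 1.17 ± 0.32 SE) and AT4G11290 (254, 268 and 255, then 877, 425 and 373, 1.00 ± 0.30 SE) passed the methods' rule upward (0.449% of all probe sets). At an unadjusted p under 0.05, 4 members were higher (4.25% of all probe sets) and 1, AT4G36430, was lower (-0.65 ± 0.24 SE, 5.13% of all probe sets). AT4G38080, a hydroxyproline-rich glycoprotein, had 1145, 1011 and 507 at 97 kPa, 2964, 1683 and 1998 at 50 kPa and 3086, 2906 and 3774 at 50 kPa/NormOx (1.36 ± 0.26 SE against 97 kPa, limma adjusted p = 0.0646). AT4G29030, a putative membrane lipoprotein, had 404, 329 and 390.4, 956, 1357 and 752 and 311, 1366 and 351 in the same order (1.41 ± 0.40 SE, limma adjusted p = 0.279). It differed from AT4G38080 in that 50 kPa/NormOx replicates 1 and 3 were at control level and replicate 2 was as high as the highest 50 kPa array.

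Expansins loosen walls during growth, and of 7 tested alpha-expansins EXPA8 (297, 475 and 543 at 97 kPa, 191, 254 and 169 at 50 kPa, -1.08 ± 0.27 SE, limma adjusted p = 0.21) and EXPA15 (2265, 1797 and 1587, then 1120.1, 1207 and 1357, -0.61 ± 0.16 SE, limma adjusted p = 0.236) had 50 kPa arrays below every control. Over all probe sets, 9.77% lay below every control in this way. The other 5 alpha-expansins had log2 changes of -0.15 to 0.03, so that the family's median was 0.00. In the pectate lyase-like family, whose enzymes cut pectin, 3 of 15 tested members were lower at an unadjusted p under 0.05 (5.13% of all probe sets, downward), none was higher, and the median was -0.10. These were AT4G13710 (-0.84 ± 0.25 SE), AT3G27400 (-0.98 ± 0.31 SE) and the bright AT4G24780, whose signals went from 9718, 8878 and 8649.8 to 6629.6, 6679 and 7564. TBL36, of a family that acetylates wall polysaccharides, had 8269.8, 7656 and 7113 at 97 kPa, 4158, 4352 and 5475 at 50 kPa and 5673, 4801 and 4006 at 50 kPa/NormOx (-0.73 ± 0.14 SE against 97 kPa, limma adjusted p = 0.066, and 0.0247 over the 6 arrays). The remaining 17 tested members of its family did not reach an unadjusted p under 0.05.

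Further genes called when the 6 arrays were fitted alone included, on the lower side, AT1G21440, of a phosphoenolpyruvate carboxylase-like family (6069.7, 5631 and 5837 at 97 kPa, 3569.8, 4275 and 3792 at 50 kPa, -0.60 ± 0.12 SE), AT4G00780, a TRAF-like family gene (1366, 1472 and 1526, then 608, 872 and 954, -0.87 ± 0.18 SE), AT1G73120 (-0.92 ± 0.24 SE) and the plant defensin PDF2.1 (3728, 3190.0 and 2708, then 1846, 1835 and 2133, -0.72 ± 0.24 SE). Limma's adjusted p over the 6 arrays was 0.0427, 0.0436, 0.0427 and 0.0436 for these genes. On the higher side were the proteinase inhibitor gene AT2G38870 (1755, 1842 and 2010.2 at 97 kPa, 2701, 3405 and 2834 at 50 kPa, 0.67 ± 0.17 SE) and AT5G14910 (855, 829.9 and 926, then 1675, 1950.2 and 1593, 1.00 ± 0.21 SE). The GDSL-type lipase genes AT5G45670 (517, 484 and 389, then 775, 863 and 950.0, 0.90 ± 0.20 SE) and AT5G45950 (1.84 ± 0.90 SE) were also higher. AT5G45950 was dim, with 97 kPa replicates 1 and 3 (51.6 and 56.1) under the floor of 66.7. Its limma adjusted p was 0.547 over the 9 arrays and 0.0425 over the 6. All of these genes had 50 kPa arrays on 1 side of the controls, as did 16% of all tested probe sets. They were chosen by the fit to these same 6 arrays, so the lack of overlap adds no support. AT1G21440 and AT4G00780 were at 3476, 4155 and 3877 and 568, 758 and 544 at 50 kPa/NormOx, and AT5G14910 at 1139, 2205 and 1184, where replicate 2 again stood above its group.

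**Figure D5:**
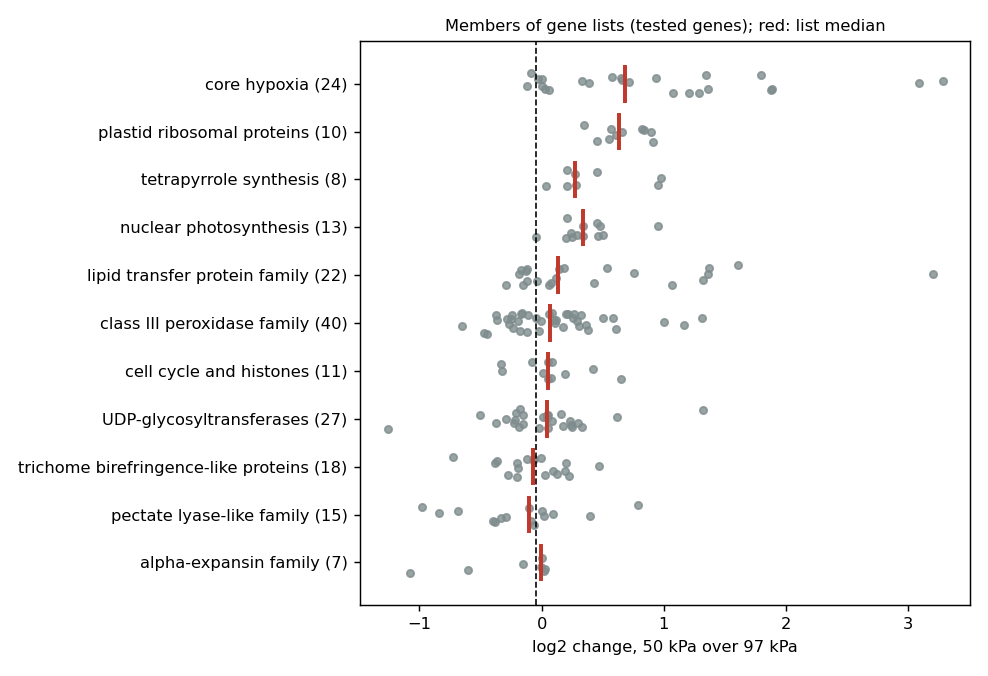
Log2 change at 50 kPa over 97 kPa of the tested members of 11 gene lists (points; number tested in brackets), with list medians in red and the median of all tested probe sets, -0.04, as a dashed line. Core hypoxia and plastid ribosomal medians lie to the right (0.69 and 0.63), the latter on a list drawn up after values were seen and with no member past the test, while lipid transfer, peroxidase, expansin and pectate lyase genes have a median near 0 with single members far from it.

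Other processes had few tested members or values near the background. The lists for glycolysis, ethylene, cytokinin, brassinosteroid and cytosolic ribosomal proteins had 1 or 2 tested members each, none past an unadjusted p under 0.05. The aquaporin list matched only AQI, which is not an aquaporin, so that no aquaporin of the list was tested by name. The circadian clock list had GI (-0.22 ± 0.15 SE) and CCR2, a symbol match that belongs to the phenylpropanoid list. Cell cycle and histone genes (11 tested) had log2 changes of -0.33 to 0.65, abscisic acid and desiccation genes (7 tested) of -0.38 to 0.08, and pectin, extensin and arabinogalactan genes (7 tested) of -0.30 to 0.04, again with no member past that level. The desiccation list held COR47 and COR15B, dehydrin-type and cold-regulated proteins, at -0.20 ± 0.12 and -0.38 ± 0.46 (SE), where the dehydrin gene AT4G38410 had -1.38. The respiration list (13 tested, median 0.13) also took in 3 subunits of the plastid NADH dehydrogenase-like complex, NdhN, NdhS and NdhL (0.58, 0.39 and 0.57). Its mitochondrial succinate dehydrogenase genes ran from -0.18 to 0.28. The lowest change of the list was that of NDB4 (-1.05 ± 0.51 SE), which did not reach an unadjusted p under 0.05. In flavonoid synthesis DFR, an enzyme of the anthocyanin branch (72, 95.6 and 214 at 97 kPa, 273, 615 and 183 at 50 kPa, 1.46 ± 0.58 SE), and UGT78D1, a flavonol rhamnosyltransferase (1.32 ± 0.54 SE), overlapped between the groups, and their 50 kPa replicate 2 was the highest of the group. APS3, an ATP sulfurylase of sulfate assimilation, was lower (829, 475 and 754, then 324, 434 and 473, -0.72 ± 0.21 SE, limma adjusted p = 0.303).

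The direct difference between 50 kPa and 50 kPa/NormOx, which share the 50 kPa arrays with the comparison above, was tested for the called genes (13 of 15818 probe sets passed over the whole table, 0.0822%). AT4G33560 (3.20, limma adjusted p = 0.000136), AT3G03270 (1.40, 0.000154), AT4G27450 (1.91, 0.0023) and AT1G33055 (2.80, 0.0456) were higher at 50 kPa on the log2 scale. The difference did not pass for AT4G10270 (1.46, limma adjusted p = 0.0857), AT5G66985 (1.21, 0.0857), AT1G62500 (0.96, 0.156) or AT4G38410 (-0.67, 0.432). Unlisted probe sets that passed included 260869_at (3.31, limma adjusted p = 0.00313), 252746_at (1.77, 7.56e-05), 250152_at (1.42, 0.00273) and 253416_at (2.80, 0.00987), while 253402_at (-0.14, 0.815) did not. Of the 13 called risers, named and unlisted, 9 were also called higher against 50 kPa/NormOx. The cortex markers thus differed among themselves, with 0.96 for AT1G62500, -0.66 for AT1G62510 and 0.16 for AT1G09750. The suberin gene AT2G48130 had -0.34. Adjusted p by limma was 0.54 for AT1G62510, 0.883 for AT1G09750 and 0.727 for AT2G48130.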

How the data were processed

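RNA of dissected roots was labelled with a 3′ kit and hybridised to ATH1 arrays, 3 per group. The authors made the values with MAS5 in Affymetrix Expression Console (versions not given in the sources used here), and the deposited values are linear signal intensities with a trimmed mean of 500.1 on every array. Such scaling would hide a change in total mRNA. Detection calls were not used here, and precision is limited by the number of arrays. The study itself tested values from another normalization, which was not used here.

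Of 22810 probe sets (0 sample columns unused), 64 controls, 148 organelle probe sets (69 named, 79 by probe number) and the dimmest 30% of the rest (6780, floor at 66.7) were left out, and 15818 were tested. Names came from the platform annotation (13513 probe sets with 1 gene, 13436 of them matched to TAIR10.1, 503 with several, 8794 not listed). PDC1, ADH1 and other genes it does not list were not analysed by name here. Promoter sequences and motifs were not analysed here. Where several probe sets name 1 gene, lists use the brightest.

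The log2 signals of all 9 arrays were fitted with limma 3.58.1 (R 4.3.3; group means, intensity trend, two-sided moderated tests, Benjamini-Hochberg adjustment over 15818), so that the groups share 1 spread. Named were every called probe set, the 10 largest rises and falls past the methods' rule (unadjusted p under 0.01, at least 2-fold) that name 1 gene and do not overlap, up to 4 members of each list by smallest p, and genes called by the 6 arrays alone, the last chosen after their values were seen. The members and lists were chosen with earlier results of these data known. Besides 34 lists drawn up at the start, of which 11 had at least 5 tested members, 16 were drawn up after values were seen. Lists were matched by symbol and locus, and the defence list took in genes of methionine metabolism, so it is not described. The aquaporin and clock lists likewise took in AQI and CCR2 by symbol. The description of 50 kPa replicate 2 carries another replicate number than its title, and the title was used.

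Data were simulated with the fitted spread, with 200 probe sets changed among 15818. Of these changes, 23.9% of 1.5-fold, 65.7% of 2-fold and 93.9% of 4-fold were recovered, with 9 false calls. The simulated noise was normal and independent between probe sets, with no outlying array. More probe sets were changed than the 15 called here, which loosens the adjusted threshold. The shares may therefore be higher than in the real comparison. Alternatives covered the filter, scaling, offset, variance model, array weights, arrays fitted, a replicate block, the kept organelle probe sets, the threshold, and each array left out in turn.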

Additional observations from a re-analysis of the deposited data

How the results depend on the processing

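The 15 calls at an adjusted p under 0.05 became 38 at an adjusted p under 0.10 and 1483 at an unadjusted p under 0.05 (672 higher, 811 lower). They became 24 with 32 added before log2, 6 without the intensity trend, 35 with array weights and 62 for the 6 arrays alone, and 8 to 53 when single arrays were left out. All 15 were among the calls with the offset, with array weights and for the 6 arrays alone, and 6 of them were called without the trend. The other fits, over the filter, the scaling, the robust prior and the organelle probe sets, gave 11 to 19 calls. The 101 probe sets past the methods' rule became 160 with no filter (55% higher), 56 with the dimmest 50% left out (82.1% higher) and 64 with the offset, and 76 to 125 when single arrays were left out. Scaling moved the split from 70.3% higher to 82.8% after quantile normalization and 82.7% after centring on the median, a step that moved the median change of all probe sets from -0.04 to 0.01.

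The replicate block gave 30 calls, and the methods' rule 105. Deviations of arrays with the same replicate number correlated across probe sets at -0.05 to 0.02 between 97 kPa and 50 kPa, and at -0.03 to 0.11 where 50 kPa/NormOx took part, highest for replicates 2 of the low-pressure groups. Not every pair was over 0.1 and not every array correlated best with its own number, so the numbers were not read as pairs.

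Of 3340 values of single genes under an alternative, 3228 kept their side of the threshold, 31 lost the call and 81 gained it. Called values that changed sign numbered 0. The values cover 169 genes, most of them not called in the main fit. Only the 8 named called genes could lose a call, so the share kept does not measure the stability of the calls. Losses of unlisted probe sets are not in the 31. Of 540 list medians, 38 moved by more than 1 SD between arrays. The median ran from 0.57 to 0.80 for core hypoxia, from 0.45 to 0.85 for plastid ribosomal proteins, from 0.19 to 0.47 for tetrapyrrole synthesis and from 0.18 to 0.51 for nuclear photosynthesis. The causes of these shifts were not tested. Dim probe sets limit the folds of AT1G33055, AT5G55450 and AT5G51490.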

Other observations

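Probe sets outside the tested set gave the following values. The 69 plastid-encoded probe sets had a median log2 change of 0.16 at 50 kPa against 97 kPa, with 54 above 0. Their mean log2 signal relative to the 97 kPa mean was -0.09, 0.22 and 0.40 on the 50 kPa arrays, which overlapped the controls (-0.01, 0.09 and -0.08), and -0.47, -0.31 and -0.48 at 50 kPa/NormOx. The other 79 organelle probe sets had a median of -0.20, with 30 above 0. Of the 10 families grouped by gene symbol after values were seen, none had a called member in the fit over 9 arrays. Such families include the UDP-glycosyltransferases (27 tested, median 0.04), serine carboxypeptidase-like proteins (17 tested, 0.07) and bZIP factors (10 tested, -0.07). At an unadjusted p under 0.05 their lowest changes were those of TRM25 (-1.30 ± 0.52 SE), IQD18 (-1.04 ± 0.32 SE) and TBL36 (-0.73 ± 0.14 SE). The highest were those of UGT78D1 (1.32 ± 0.54 SE), IQD21 (1.07 ± 0.46 SE) and BGLU44 (0.55 ± 0.21 SE). TRM25 was dim, with 50 kPa replicates 1 and 3 (22.1 and 51.2) under the filter's floor of 66.7.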
